A study of Mus musculus and Homo sapiens with 23 samples.

Results

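The MAP kinase cascade was followed in BV2 cells through 9 genes: the MAP kinase kinase kinases (MAP3K) Map3k5 and Map3k8, the MAP kinase kinases (MAP2K) Map2k1 and Map2k3, the MAP kinases Mapk3, Mapk8, Mapk9 and Mapk14, and the MAPK-activated kinase Mapkapk2. They were taken by symbol, as a list chosen with earlier results of these data known. All 9 had values among the 21599 genes measured in each library. BV2 is an established mouse cell line of microglia, which are the macrophages that live in brain tissue. There was 1 library of LPS-stimulated BV2 cells, exposed for 3 h to lipopolysaccharide (LPS), a component of the outer membrane of Gram-negative bacteria, and 1 of unstimulated BV2 cells. The labels give neither the LPS dose nor separate cultures. The other 21 of the 23 samples of the series, from chromatin, were not analysed here. As background, the line was immortalised with a retrovirus that carries oncogenes, which both libraries share.

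A MAP kinase cascade passes a signal through kinases that phosphorylate one another in order: a MAP3K acts on a MAP2K, the MAP2K on a MAP kinase, and the MAP kinase on transcription factors and further kinases. In macrophages and microglia, LPS acting on its receptor TLR4 switches on the ERK, JNK and p38 branches, and MK2, the product of Mapkapk2, is the p38-activated kinase that keeps cytokine mRNAs stable and translated. Kinase activity is set by phosphorylation, which RNA levels do not measure.

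With 1 library per condition there was no test across replicates, condition and library cannot be told apart, and every difference is one between these libraries. Values are deposited FPKM (fragments scaled to transcript length and to the size of the library), with the deposited 95% interval, which covers counting and fragment assignment inside 1 library. Changes are differences in log2(FPKM + 1), LPS minus unstimulated, and a gene was called higher or lower when its change reached 1 in size. Genes that reached 1 FPKM in at least 1 library were counted, 10036 in all. Their median change was -0.24, so changes of members are read against a centre slightly below 0. In bulk RNA, fewer cells with a transcript and less of it per cell cannot be told apart. All 5 LPS response genes checked (Tnf, Il6, Il1b, Cxcl10, Nfkbia) were higher, at 254 to 2666 FPKM in the LPS library and 0.258 to 11.5 FPKM in the unstimulated library. All 9 measured markers of microglia and macrophages were counted, at 3.88 to 3064 FPKM in the LPS library and 3.19 to 4280 FPKM in the unstimulated library. Of 29 markers of other cells (lymphocytes, fibroblasts and endothelium, oligodendrocytes, astrocytes and neurons), 0 were counted. The highest of them was Mbp, at 0.394 FPKM in the LPS library and 0.457 FPKM in the unstimulated library, and the summed level of a list was at most 0.523 FPKM in the LPS library and 0.824 FPKM in the unstimulated library.

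The members called higher after LPS were Mapkapk2, at the output of the p38 branch, and Map3k8, a MAP3K of the ERK branch. Mapk3, Map2k1 and Map2k3 also had higher values in the LPS library, within the rule. Mapkapk2 rose to 798 FPKM in the LPS library, against 38.3 FPKM in the unstimulated library, and Map3k8 rose to 8.96 FPKM in the LPS library, against 2.51 FPKM in the unstimulated library. Of 8 members counted, these 2 were higher, where 8.54% of all counted genes were higher. The number of members lower was 0, where 12.4% of all counted genes were lower. Map3k5, below 1 FPKM in both libraries, was not counted. The median change of the 8 counted members was 0.42. After rescaling to TPM (each library scaled to the same sum), Mapk8 and Mapk14 passed the rule as lower, with changes of -1.12 and -1.12. After setting the median change of all counted genes to 0, Map2k1 passed as higher, with 1.02.

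**Figure D1:**
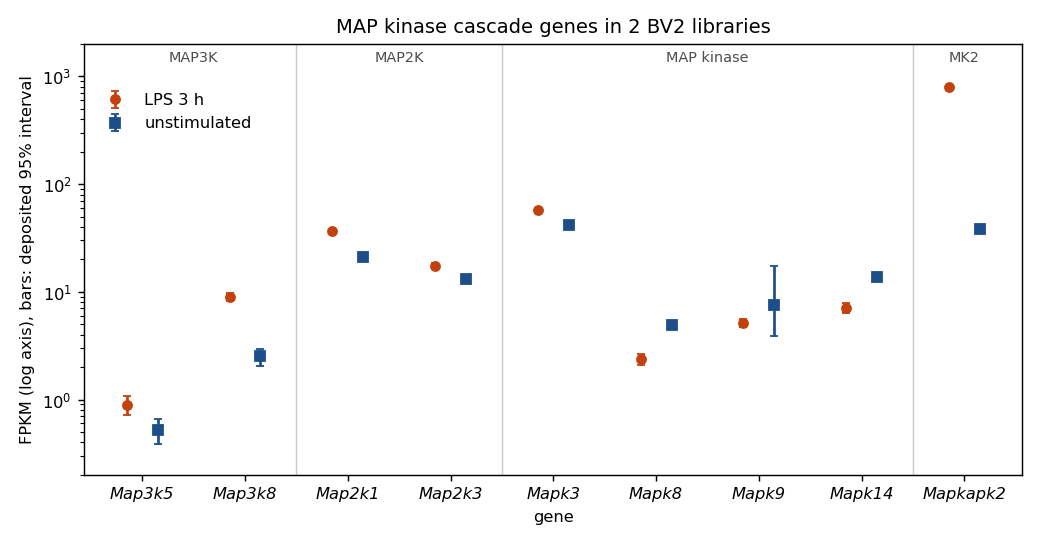
FPKM of the 9 cascade genes on a log axis, LPS library (circles, left of each pair) and unstimulated library (squares, right), with the deposited 95% interval as bars, ordered by tier from MAP3K to MK2. Mapkapk2 stands at 798 FPKM in the LPS library and 38.3 FPKM in the unstimulated library, while Mapk8 and Mapk14 are lower in the LPS library and the Mapk9 intervals overlap.

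The deposited intervals give a finer but within-library measure. They were separate in either direction for 7 of the 8 counted members, where this held for 73.6% of all counted genes. They were separate and higher after LPS for 5 members, where they were separate and higher for 25.1% of all counted genes. They were separate and lower for 2 members, against 48.5% of all counted genes, and they overlapped for 1 member, Mapk9. Members with separate intervals and a change below 1 in size are given here with their values only.

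In the LPS library the order of the members, from high to low, was Mapkapk2, Mapk3, Map2k1, Map2k3, Map3k8, Mapk14, Mapk9, Mapk8 and Map3k5, and no neighbours in this order had overlapping intervals. In the unstimulated library Mapk3 came first, with an interval that overlapped that of Mapkapk2. Map2k1 followed, then Mapk14 and Map2k3, whose intervals overlapped. Mapk9, with an interval that covered those of Mapk14, Map2k3 and Mapk8, came next, then Mapk8, Map3k8 and Map3k5. FPKM is scaled to transcript length, so these levels can be set beside one another.

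**Figure D2:**
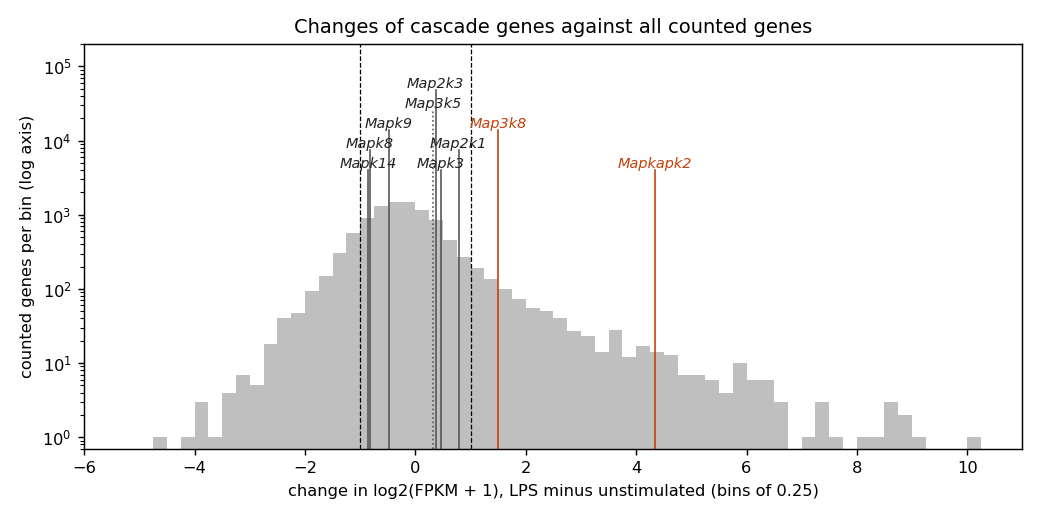
Histogram of the change in log2(FPKM + 1), LPS minus unstimulated, for 10036 counted genes (grey bars, log axis), with a line at the change of each cascade gene. Dashed lines mark the size rule of 1, and Map3k5, not counted, is dotted. Mapkapk2 at 4.34 and Map3k8 at 1.504 lie beyond the rule.

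Among the MAP3K genes, Map3k8 encodes Tpl2 (also called Cot), the kinase that links TLR4 to the ERK branch in macrophages. Its mm9 locus is on chromosome 18, from 4331325 to 4352951, and its only row is NM_007746. Map3k8 was at 8.96 FPKM (8.14 to 9.78) in the LPS library and at 2.51 FPKM (2.06 to 2.96) in the unstimulated library. The LPS library was the higher one and the intervals did not overlap. The change was 1.504 and the FPKM ratio 3.57 (2.92 to 4.36), with 476 implied fragments (read back from the width of the interval) in the LPS library and 127 in the unstimulated library. This change was larger than that of 94.7% of counted genes. The call depends on the pseudocount, since with a pseudocount of 5 the change was 0.89.

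Map3k5 encodes ASK1, the kinase that answers oxidative stress and acts on the JNK and p38 branches. It was at 0.894 FPKM (0.721 to 1.07) in the LPS library and at 0.518 FPKM (0.383 to 0.652) in the unstimulated library, on chromosome 10, from 19654332 to 19862556 (mm9, row NM_008580). The values rest on 107 implied fragments in the LPS library and 59 in the unstimulated library, and the change of 0.32 was within the rule. Map3k8 stood at 10.0 times the FPKM of Map3k5 in the LPS library and at 4.85 times in the unstimulated library.

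The other kinases of that tier mostly had lower values after LPS without passing the rule. A change below 0 was also found for 64.2% of all counted genes. Of 25 listed MAP3K genes, Raf kinases and Tao kinases included, 24 were measured and 17 counted. Map3k8 was the 1 higher, 2 were lower and 14 were within the rule, with a median change of -0.40. All counted genes gave 8.54% higher, 12.4% lower and a median change of -0.24. The 2 lower were Map3k1, the MEKK1 kinase that acts on the JNK branch (1.21 FPKM in the LPS library, 6.48 FPKM in the unstimulated library), and Araf, a Raf kinase of the ERK branch (10.9 FPKM in the LPS library, 24.01 FPKM in the unstimulated library). In the LPS library the highest level was that of Map3k12, at 17.99 FPKM, against 20.1 FPKM in the unstimulated library. Map3k7 encodes TAK1, a MAP3K shared by the MAP kinase and NF-kB pathways. It was at 2.74 FPKM in the LPS library and 3.38 FPKM in the unstimulated library. Map3k10 was not analysed here. One step further up, among 7 listed MAP kinase kinase kinase kinases, 4 were counted and 1 was higher: Map4k4 was at 33.9 FPKM (32.8 to 34.9) in the LPS library and 13.6 FPKM (12.9 to 14.3) in the unstimulated library. Mink1, whose rows carried a failed status in the unstimulated library, and Map4k3 were not used here.

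At the level of the MAP2K genes, the RNA of both members was modestly higher without passing the rule. Map2k1 encodes MEK1, which phosphorylates the ERK kinases. It was at 36.9 FPKM (35.2 to 38.6) in the LPS library and at 21.0 FPKM (19.7 to 22.3) in the unstimulated library, a change of 0.78 and a ratio of 1.76 (1.62 to 1.90). Its locus (mm9 chromosome 9, 64033600 to 64101412, row NM_008927) holds the row of another gene, Uchl4, over 1162 of 67813 bases. Uchl4 was at 5.56 FPKM in the LPS library and 10.7 FPKM in the unstimulated library, the opposite direction to Map2k1. The libraries were made with a directional kit, but no source read for this work says whether counting used strand, so fragments of the stretch they share cannot be assigned with certainty.

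Map2k3 encodes MKK3, an upstream kinase of p38. It was at 17.4 FPKM (16.1 to 18.6) in the LPS library and at 13.2 FPKM (12.1 to 14.4) in the unstimulated library (mm9 chromosome 11, 60745559 to 60766305, row NM_008928), a change of 0.37 and a ratio of 1.31 (1.18 to 1.46). The LPS library was the higher one for both MAP2K members, with separate intervals.

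Across all 7 MAP2K genes, each of them counted, 0 were higher and 1 was lower, with a median change of 0.37. Beside this, 8.54% of all counted genes were higher and 12.4% lower, with a median change of -0.24. The lower one, within the rule after quantile normalisation and with a pseudocount of 5, was Map2k6, which encodes MKK6, the other upstream kinase of p38: it fell to 0.350 FPKM (0.169 to 0.530) in the LPS library, against 2.23 FPKM (1.76 to 2.69) in the unstimulated library. Map2k3 therefore made up 98.0% of the summed FPKM of Map2k3 and Map2k6 in the LPS library and 85.6% in the unstimulated library. Map2k4, the MKK4 kinase of the JNK branch, was at 21.1 FPKM in the LPS library and 11.9 FPKM in the unstimulated library, within the rule. Map2k1 made up 66.8% of the summed FPKM of Map2k1 and Map2k2 in the LPS library and 60.7% in the unstimulated library. Map2k2, the MEK2 gene, was at 18.3 FPKM in the LPS library and 13.6 FPKM in the unstimulated library.

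The MAP kinase genes differed by branch, and on the deposited scale 0 of the 4 members passed the rule. Mapk3 encodes ERK1 (mm9 chromosome 7, 133903140 to 133909330, row NM_011952). It was at 57.4 FPKM (54.9 to 59.96) in the LPS library and at 41.3 FPKM (39.1 to 43.5) in the unstimulated library, a change of 0.46 and a ratio of 1.39 (1.297 to 1.49). It was the one MAP kinase member with a higher gene value in the LPS library. The intervals did not overlap.

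Mapk8 and Mapk9 encode JNK1 and JNK2, the kinases that phosphorylate c-Jun. Mapk8 was at 2.36 FPKM (2.09 to 2.63) in the LPS library and at 4.96 FPKM (4.56 to 5.36) in the unstimulated library (mm9 chromosome 14, 34191084 to 34260344, row NM_016700). The LPS library was the lower one and the intervals did not overlap, with a ratio of 0.475 (0.413 to 0.547) and a change of -0.83. With a pseudocount of 0.1 the change was -1.04, past the rule. Mapk9, summed over its 4 rows, was at 5.15 FPKM (4.71 to 5.60) in the LPS library and at 7.61 FPKM (3.88 to 17.3) in the unstimulated library, with overlapping intervals and a change of -0.48. Mapk10, the JNK3 gene known from neurons, was listed at 0 in both libraries.

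The direction of Mapk9 rests on how its fragments were divided among transcripts that share one locus (mm9 chromosome 11, 49660253 to 49699923). In the LPS library, NM_207692 held 5.15 FPKM, which was 99.98% of the summed value. In the unstimulated library it held 2.93 FPKM (2.49 to 3.37), which was 38.5%, and NM_001163672 held 3.67 FPKM with an interval of 0 to 10.5. For NM_207692 alone the LPS library was the higher one, with separate intervals and a change of 0.65. The sign for the gene is opposite to that for this row, which had the highest value in the LPS library only. In the unstimulated library NM_001163672 had the highest value, 48.2% of the sum. NM_016961 was the other row with separate intervals, near 0 in the LPS library, with an upper bound of 0.0194 FPKM, and at 0.565 FPKM (0.355 to 0.775) in the unstimulated library.

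**Figure D3:**
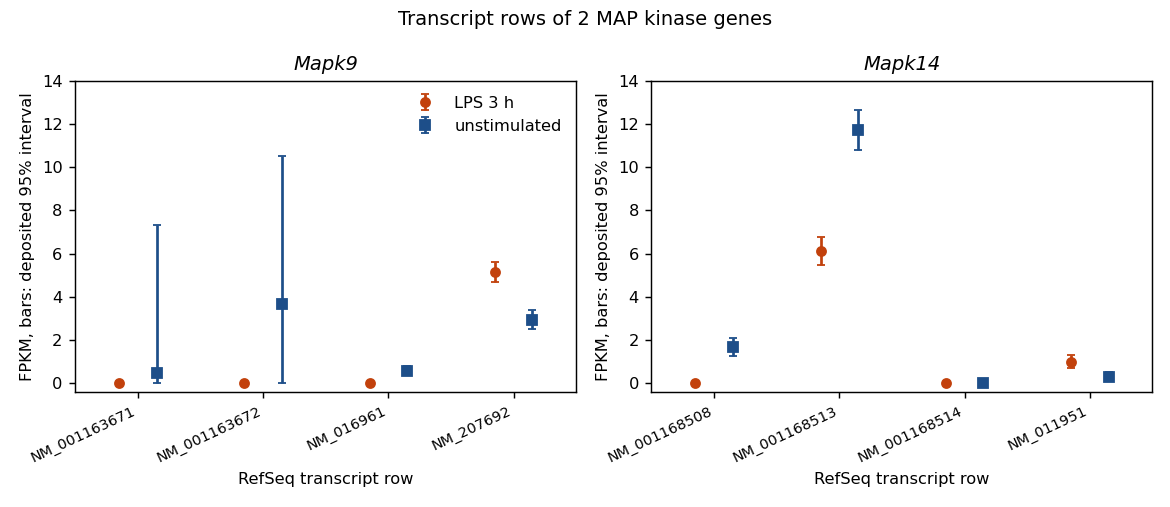
FPKM of each RefSeq transcript row of Mapk9 (left) and Mapk14 (right), LPS library (circles) and unstimulated library (squares), with the deposited 95% interval as bars. The unstimulated interval of the Mapk9 row NM_001163672 runs from 0 to 10.5 FPKM, and the Mapk14 row NM_001168513 holds most of that gene's FPKM in both libraries.

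Mapk14 encodes p38 alpha, the kinase directly above MK2. Over its 4 rows it was at 7.09 FPKM (6.38 to 7.81) in the LPS library and at 13.7 FPKM (12.7 to 14.7) in the unstimulated library, with separate intervals. The ratio was 0.518 (0.457 to 0.587) and the change -0.86, within the rule on the deposited scale and past it after TPM. It was the only p38 gene at an appreciable level: Mapk11 was at 0.271 FPKM in the LPS library and 0.0407 FPKM in the unstimulated library, and Mapk12 and Mapk13 were listed at 0 in both. Mapk14 made up 96.3% of the summed p38 FPKM in the LPS library and 99.7% in the unstimulated library.

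The Mapk14 rows begin at 2 positions, 1226 bases apart in mm9 (chromosome 17, 28828287 and 28829513, both ending at 28885350). The row that begins at the inner position, NM_001168513, was at 6.11 FPKM (5.46 to 6.76) in the LPS library and at 11.7 FPKM (10.8 to 12.7) in the unstimulated library. The 3 rows that begin at the outer position summed to 0.981 FPKM in the LPS library and 1.95 FPKM in the unstimulated library, so the values of both starts were lower in the LPS library. Within those 3, NM_001168508 was near 0 in the LPS library, with an upper bound of 0.0263 FPKM, and at 1.67 FPKM (1.26 to 2.07) in the unstimulated library, while NM_011951 was at 0.980 FPKM (0.680 to 1.28) in the LPS library and at 0.285 FPKM (0.0733 to 0.497) in the unstimulated library. NM_001168514 was near 0 in both. Such rows share exons, and a split between them is an estimate.

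RefSeq also gives 2 Mapk14 starts, likewise 1226 bases apart on its build GRCm38.p6, and the 250 bases before each are shown because most Mapk14 FPKM was assigned to the inner one. The outer window is chr17:28691092-28691341 and the inner one chr17:28692318-28692567, both on the plus strand. Capitals mark, in the outer window, a GC box (GGGCGG on either strand) and, in the inner window, a match to the interferon-stimulated response element (GAAA, any 2 bases and GAAA, on either strand).
Mapk14 outer start: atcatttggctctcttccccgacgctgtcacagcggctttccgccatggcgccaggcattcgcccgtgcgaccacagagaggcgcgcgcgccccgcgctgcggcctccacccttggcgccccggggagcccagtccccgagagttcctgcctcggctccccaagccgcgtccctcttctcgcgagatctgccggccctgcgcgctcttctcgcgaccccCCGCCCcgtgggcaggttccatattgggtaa
Mapk14 inner start: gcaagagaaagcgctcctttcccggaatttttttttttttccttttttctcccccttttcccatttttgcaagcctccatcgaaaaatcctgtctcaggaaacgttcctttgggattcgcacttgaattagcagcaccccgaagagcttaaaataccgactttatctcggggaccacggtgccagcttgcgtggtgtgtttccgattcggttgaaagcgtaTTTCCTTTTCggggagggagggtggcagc
Their GC content was 70.4% for the outer window and 48.4% for the inner window. A GC box was found in 32.7% and the interferon-stimulated element in 2.98% of all 32851 RefSeq windows of that length. These matches describe the letters and do not show a bound site.

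Of all 14 MAP kinase genes listed, 8 were counted, 0 were higher and 0 were lower, against 8.54% and 12.4% of all counted genes. The median change of the 8 was -0.38, beside -0.24 for all counted genes. Besides those described, Mapk6, which encodes the atypical kinase ERK3, was at 23.8 FPKM (22.5 to 25.1) in the LPS library and at 15.4 FPKM (14.4 to 16.5) in the unstimulated library. Nlk, an atypical kinase of the Wnt pathway, was at 1.17 FPKM in the LPS library and 2.56 FPKM in the unstimulated library. Both were within the rule.

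**Figure D4:**
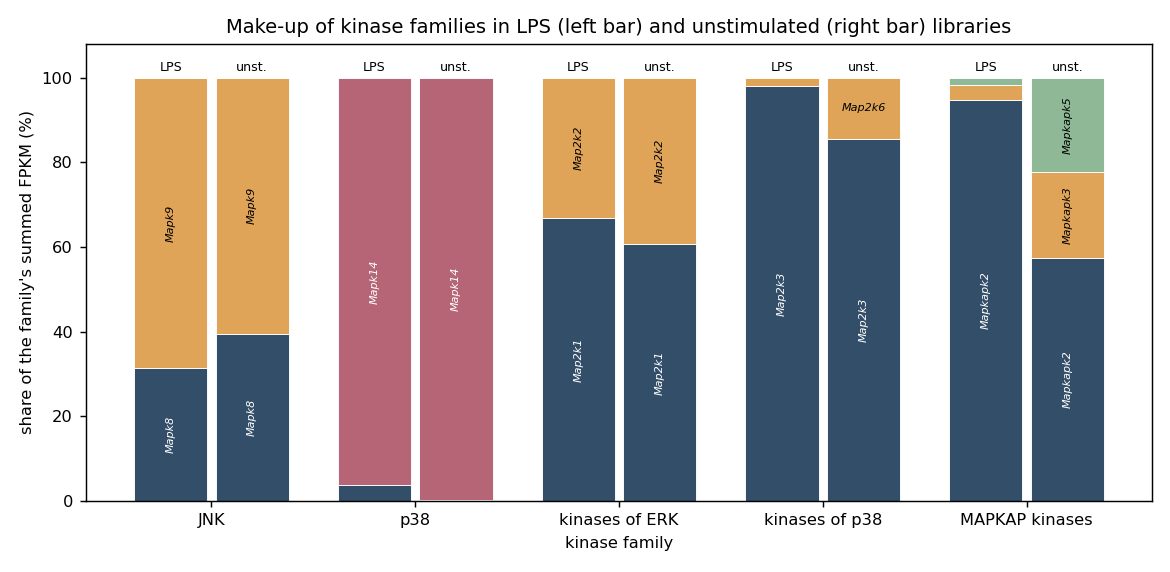
Share of the summed FPKM of 5 kinase families held by each gene, LPS library (left bar of each pair) and unstimulated library (right bar). Mapkapk2 fills 94.7% of the MAPKAP kinase bar in the LPS library and 57.4% in the unstimulated library, while Mapk14 fills nearly the whole p38 bar in both.

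At the output of the p38 branch the difference was of another size. Mapkapk2 encodes MK2, which phosphorylates the mRNA decay factor tristetraprolin and the small heat shock protein HSP27. It was at 798 FPKM (790 to 805) in the LPS library and at 38.3 FPKM (36.6 to 40.1) in the unstimulated library (mm9 chromosome 1, 132950281 to 132994120, row NM_008551). The LPS value lay far above the unstimulated one, with a change of 4.34 and a ratio of 20.8 (19.9 to 21.8). Behind these levels stand 43493 implied fragments in the LPS library and 1990 in the unstimulated library. By level, Mapkapk2 ranked 146 of 10036 counted genes in the LPS library and 1828 in the unstimulated library, and it ranked 85 by the size of its rise. Over 9 alternative settings its change stayed between 4.08 and 4.58.

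Mapkapk2 stood higher relative to its upstream kinase and to its relatives in the LPS library than in the unstimulated library. The FPKM of Mapkapk2 was 112 times that of Mapk14 in the LPS library and 2.80 times in the unstimulated library. Mapkapk3, which encodes the related p38-activated kinase MK3, was also higher, at 29.2 FPKM (27.8 to 30.6) in the LPS library and 13.6 FPKM (12.6 to 14.6) in the unstimulated library, a change of 1.05. Mapkapk5, which encodes the more distant MK5, was at 15.2 FPKM (14.02 to 16.3) in the LPS library and 14.8 FPKM (13.6 to 16.0) in the unstimulated library, with overlapping intervals. Mapkapk2 thus held 94.7% of the summed FPKM of these 3 genes in the LPS library and 57.4% in the unstimulated library.

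The 250 bases before the RefSeq start of Mapkapk2 (GRCm38.p6 chr1:131097844-131098093, minus strand, printed in the direction of the gene) are shown because this gene has the largest change of the 9. Capitals mark a stretch of 15 bases that occurs 2 times, beginning 94 and 31 bases before the start. It was noticed on reading the window and not searched for beforehand.
Mapkapk2: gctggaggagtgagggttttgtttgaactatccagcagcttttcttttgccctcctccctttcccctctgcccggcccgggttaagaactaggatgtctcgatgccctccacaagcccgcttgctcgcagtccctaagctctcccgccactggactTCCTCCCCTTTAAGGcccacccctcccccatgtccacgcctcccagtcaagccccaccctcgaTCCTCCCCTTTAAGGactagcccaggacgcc
A direct repeat of at least 15 bases was found in 2.45% of all RefSeq windows of that length. The Mapkapk2 window, 60.4% GC, held 0 matches on either strand to each of 7 motifs searched: the kappaB decamer (present in 7.25% of all windows), the AP-1 site TGANTCA (6.75%), the cyclic AMP response element TGACGTCA (1.55%), the CArG box (1.47%), the GC box GGGCGG (32.7%), the interferon-stimulated response element as given for Mapk14 (2.98%) and the TATA box TATAAA (12.4%). That says only that these letters are not in these 250 bases. Windows were found for 7 of the 9 members, the others being Mapk3 and Map3k8. Among the 9 windows of those 7 genes, Mapk8 had the most GC boxes, 7 in its outer window, and the kappaB decamer had 0 matches in any.

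Other kinases that MAP kinases activate went both ways. Of 10 such genes besides Mapkapk2, 9 were counted, 3 were higher and 2 were lower, with a median change of -0.01. For all counted genes the shares were 8.54% higher and 12.4% lower, and the median change was -0.24. The 3 higher were Mapkapk3, Rps6ka2 and Rps6ka4. Rps6ka2, the RSK3 gene of the ERK branch, was at 5.28 FPKM (4.86 to 5.70) in the LPS library and 0.936 FPKM (0.755 to 1.12) in the unstimulated library. Rps6ka2 was thus counted only through the LPS library, where it was higher. Rps6ka4, which encodes the histone H3 kinase MSK2, was at 18.9 FPKM (17.8 to 19.95) in the LPS library and 8.38 FPKM (7.65 to 9.10) in the unstimulated library. The 2 lower were Mknk1 and Mknk2, whose products phosphorylate the translation factor eIF4E. Mknk1 fell to 6.44 FPKM (5.74 to 7.14) in the LPS library, against 25.6 FPKM (24.2 to 27.02) in the unstimulated library, and Mknk2 fell to 7.79 FPKM (7.11 to 8.48) in the LPS library, against 17.2 FPKM (16.1 to 18.2) in the unstimulated library. Of these calls, Mapkapk3 and Rps6ka4 were within the rule after TPM, and Mknk2 was within it after median scaling and after quantile normalisation. With a pseudocount of 5, Mapkapk3, Rps6ka2, Rps6ka4 and Mknk2 were all within it, and Mknk1 was still lower.

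Scaffolds and binding partners of the members were listed too. Of 13, 12 were measured, 10 counted, 2 higher and 0 lower, with a median change of -0.16. The same rule called 8.54% of all counted genes higher and 12.4% lower, and their median change was -0.24. Nfkb1, whose precursor protein p105 holds Tpl2 inactive, was at 91.9 FPKM (89.9 to 93.9) in the LPS library and 10.4 FPKM (9.71 to 11.1) in the unstimulated library, a change of 3.03 beside 1.504 for Map3k8 itself. Tnip2, which encodes ABIN2, the other protein bound to Tpl2, was at 8.44 FPKM (7.53 to 9.35) in the LPS library and 10.2 FPKM (9.13 to 11.2) in the unstimulated library, with overlapping intervals. Ksr1, a scaffold of the Raf, MEK and ERK module, was at 2.64 FPKM (2.29 to 2.98) in the LPS library and 0.470 FPKM (0.321 to 0.618) in the unstimulated library. Ksr1 too was counted only through the LPS library. Txn1, the thioredoxin that binds ASK1, was at 247 FPKM in the LPS library and 258 FPKM in the unstimulated library, with overlapping intervals. Ksr2 was not analysed here.

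The dual-specificity phosphatases that switch MAP kinases off gave 4 higher and 1 lower of 8 counted, with a median change of 0.98. Among all counted genes, 8.54% were higher and 12.4% lower, with a median change of -0.24. Dusp1, which acts mainly on p38 and JNK, was at 37.8 FPKM (35.9 to 39.7) in the LPS library and 9.09 FPKM (8.11 to 10.1) in the unstimulated library. Dusp2, Dusp5 and Dusp10 were the others higher. Dusp8, Dusp10 and Dusp16 reached the minimum of 1 FPKM in the LPS library alone, so they were counted only through the library where they were higher. Dusp10 was at 1.94 FPKM in the LPS library and 0.454 FPKM in the unstimulated library. The median of this list falls between the changes of Dusp8 (0.95) and Dusp10 (1.01), so it depends on such genes. Dusp7, which acts on ERK, fell to 1.63 FPKM (1.32 to 1.93) in the LPS library, against 6.33 FPKM (5.71 to 6.94) in the unstimulated library.

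Over all lists of the pathway, the 9 members left out, 80 of 106 genes were counted. Of these, 13 were higher, 12 lower and 55 within the rule, where 8.54% of all counted genes were higher and 12.4% lower. Among the 13 higher, Rps6ka2, Ksr1 and Dusp10 reached the FPKM minimum in the LPS library alone. Among the 12 lower, Map2k6 and Mef2c reached it in the unstimulated library alone. The median change of the 80 genes, -0.24, was equal, to this rounding, to that of all counted genes. The balance of directions depends on scaling: 11 were higher and 18 lower after TPM, 15 and 8 after median scaling, and 15 and 9 after quantile normalisation. The median of all counted genes moved too, to -0.48 after TPM, 0 after median scaling and -0.13 after quantile normalisation. The shares of 8.54% and 12.4% belong to the deposited scale with a pseudocount of 1. Counts at other settings are therefore not read as a result about the pathway. TPM took out 3 of the 13 higher calls (Mapkapk3, Rps6ka4, Spred1), median scaling 4 of the 12 lower calls (Araf, Mknk2, Spred2, Stmn1) and quantile normalisation 3 of them (Map2k6, Mknk2, Spred2). With a pseudocount of 5, 6 were higher (Map4k4, Nfkb1, Dusp1, Dusp5, Jund, Zfp36) and 5 lower (Mknk1, Mef2c, Fos, Ddit3, Stmn1), and the other calls were within the rule.

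**Figure D5:**
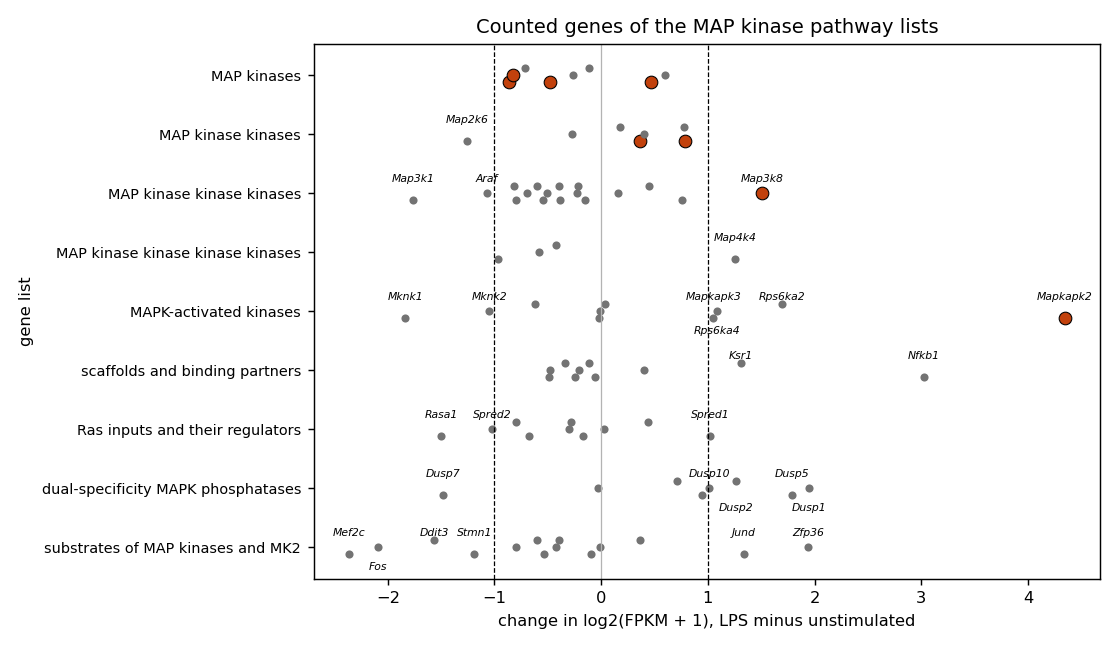
Change in log2(FPKM + 1), LPS minus unstimulated, of each counted gene of the 9 pathway lists, with members as large outlined circles, other genes as small grey ones, names on genes past the size rule and dashed lines at the rule of 1. Mapkapk2 at 4.34 lies furthest to the right, followed by Nfkb1 at 3.03.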

How the data were processed

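Per the labels' protocols, Trizol-extracted total RNA went into directional libraries read over 76 bases. The authors deposited 1 table of FPKM per library, with a lower and an upper bound. Per the submitters' processing notes they come from Cufflinks and build mm9. Aligner, versions, LPS dose and BV2 medium: not given in the sources used here. Both tables hold 28246 RefSeq transcript rows, of which 27560 (97.6%) matched a symbol in a RefSeq table of GRCm38.p6, used for names only, and the others were kept under their own ID. Rows with a status other than OK in either library (391) and small RNA rows (702 more) were left out. Rows of a symbol were summed, with interval half-widths combined in quadrature. Deposited starts were read as 0-based and are printed 1-based: end minus start equalled the gene length for 6620 of 8257 single-transcript genes, and for 289 with 1 added.

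Implied fragments are the square of 2 × FPKM divided by the half-width. They came within 0.05 of a whole number for 68.9% of the low rows in the LPS library and 67.5% in the unstimulated library, and summed to 16930000 and 13800000 to the nearest 10000. Ratio intervals combine both relative half-widths on the log scale and cover counting error only. A pseudocount of 1, a minimum of 1 FPKM and a change of 1 (a fold of 2) were used. Members and gene lists were chosen with earlier results of these data known, and the kinase families and the repeat search after values were seen. All 9 members are described, with pathway genes past the rule or most abundant in their list. Some pathway genes are not reported here. Python 3.11.15, pandas 2.3.3 and NumPy 2.4.6 were used.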

Additional observations from a re-analysis of the deposited data

How the results depend on the processing

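Of the 9 cascade genes, 8 kept the sign of their change in all 10 settings. For Mapk9 the change ran from -0.74 after TPM to 0.65 with the highest row alone. The change of Map3k8 ran from 0.89 to 1.79 and that of Mapkapk2 from 4.08 to 4.58. The number of members higher was 1 with a pseudocount of 5, which shrinks low values by construction and took out Map3k8. The number of members lower was 1 with a pseudocount of 0.1 (Mapk8) and 2 after TPM (Mapk8 and Mapk14). TPM moved the median change of all counted genes by -0.24, median scaling by 0.24 and quantile normalisation by 0.11. Pathway genes other than the members counted 6 higher and 5 lower with a pseudocount of 5. For member and pathway counts at these alternative settings, the shares over all counted genes are not given here. A filter at 5 FPKM, no filter and keeping all rows left the member counts at 2 and 0. No paired analysis was possible because each condition has 1 library. Depth limits Map3k5 most, with 107 implied fragments in the LPS library and 59 in the unstimulated library.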

Other observations

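Inputs to the cascade through Ras were listed too. Of 13 listed genes of Ras proteins, their activators and inhibitors, 10 were counted, 1 was higher and 2 were lower, with a median change of -0.29, where 8.54% of all counted genes were higher and 12.4% lower. Spred1, an inhibitor of Ras to Raf signalling, was at 15.0 FPKM (14.1 to 16.0) in the LPS library and 6.89 FPKM (6.22 to 7.56) in the unstimulated library, while its relative Spred2 was at 1.33 FPKM (1.04 to 1.63) in the LPS library and 3.74 FPKM (3.23 to 4.24) in the unstimulated library. Rasa1, a GTPase-activating protein that switches Ras off, fell to 3.81 FPKM (3.44 to 4.17) in the LPS library, against 12.6 FPKM (11.9 to 13.3) in the unstimulated library. Among 15 genes whose products are substrates of MAP kinases or MK2, 14 were counted, 2 were higher and 4 were lower. The median change of the 14 was -0.48, beside -0.24 for all counted genes, of which 8.54% were higher and 12.4% lower. Zfp36, which encodes the MK2 substrate tristetraprolin, was at 136 FPKM (132 to 140) in the LPS library and 34.7 FPKM (32.7 to 36.7) in the unstimulated library. The other one higher was Jund. The 4 lower, with LPS and then unstimulated FPKM, were Mef2c (0.908 and 8.79), Fos (2.27 and 13.0), Ddit3 (4.35 and 14.8) and Stmn1 (90.9 and 209). Mef2c reached 1 FPKM in the unstimulated library alone. Hspb1, the gene of the MK2 substrate HSP27, was listed at 0 in both libraries.

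The surroundings of Mapkapk2 were read from the mm9 loci within 200 kb, a distance chosen with the values known. Of 10 neighbouring genes, 6 were counted and 2 of these were higher, where 8.54% of all counted genes were higher. Il10, an anti-inflammatory cytokine gene 28.7 kb away, was at 1.73 FPKM in the LPS library and 0.124 FPKM in the unstimulated library. Il10 was near the minimum of 1 FPKM and reached it in the LPS library alone. Ikbke, which encodes the kinase IKK epsilon and lies 157 kb away on the other side, was at 149 FPKM in the LPS library and 9.37 FPKM in the unstimulated library. Dyrk3, Eif2d, Rassf5 and Srgap2, which lie between 30.9 and 188 kb away, were within the rule. By its pair of log2(FPKM + 1) values over 2 libraries, Mapkapk2 was nearest to Clec4e, Lgals9 and Slfn2 among 10028 genes, at distances of 0.41, 0.68 and 0.77. With 2 libraries such a likeness is a level and a change and no more.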
